A study of Mus musculus with 36 samples.

Results

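Brain tumors and retro-orbital tumors of Sglt2-Cre; ASPSCR1-TFE3 LSL/+ mice were compared by RNA sequencing, with 3 brain tumors and 4 retro-orbital tumors among the 36 samples of the series. The members were taken from the labels, 1 library per mouse and site. Brain tumors came from mouse 1, mouse 2 and mouse 4, and retro-orbital tumors from mouse 2, mouse 3, mouse 5 and mouse 6, so that mouse 2 gave both. All 7 tumors shared the genotype, in which Cre driven by the promoter of Sglt2, a sodium and glucose transporter of the renal proximal tubule, removes the stop cassette in front of ASPSCR1-TFE3, a gene fusion of human kidney cancer. No treatment and no age are given in the labels, nor whether the tumors outside the kidney had spread from it or had arisen at their site. All RNA came from formalin-fixed, paraffin-embedded blocks. Levels are given as CPM, counts divided by library size, after scaling of the libraries by the TMM method, and fold changes as log2 values of brain minus retro-orbital tumors with their standard error (SE).

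TFE3 belongs to the MiT/TFE family of transcription factors, which bind short E-box sequences in front of genes of the lysosome, autophagy and nutrient sensing. The fusion places the DNA-binding end of TFE3 behind part of ASPSCR1, and kidney carcinomas and alveolar soft part sarcomas that carry it are known for their dense network of vessels. The mesenchyme of the head and the membranes around the brain descend in part from the neural crest, and each region is marked by its own set of position-specifying transcription factors.

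The libraries held 94062687 to 119833557 counts and were similar in the share of mitochondrial counts (1.48% to 1.90%). By Y-linked genes, mouse 1 and mouse 5 were male and the others female. Across genes, the log2 levels of the 4 retro-orbital tumors correlated with each other at 0.957 to 0.986, and those of the 3 brain tumors at 0.885 to 0.931. Between the sites, the brain tumors of mouse 1 and mouse 4 correlated with retro-orbital tumors at 0.924 to 0.942, and the brain tumor of mouse 2 at 0.867 to 0.880. The brain tumors differed from each other in markers of nervous tissue. Snap25, a protein of synaptic vesicle release, was at 2.23, 284 and 14.6 CPM in the brain tumors of mouse 1, mouse 2 and mouse 4. Gfap, the astrocyte filament, was at 0.169, 118 and 147 CPM in the same order, and Mog, a protein of myelin, at 0, 15.4 and 1.54 CPM. Of these 3 markers the brain tumor of mouse 1 held the least, and the brain tumor of mouse 2 held the most Snap25 and Mog. Among retro-orbital tumors, the library of mouse 5 stood apart. It held 185 CPM of Umod, a protein of the thick ascending limb of the kidney, where the other 3 held 1.74 to 9.40 CPM, and 240 CPM of the glandular protein Ltf, where the others held 0.405 to 1.31 CPM. Genes of the eye were close to absent from retro-orbital tumors: 6 of 18 listed genes passed the filter on low counts, and the list summed to 1.49 to 4.58 CPM.

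**Figure D1:**
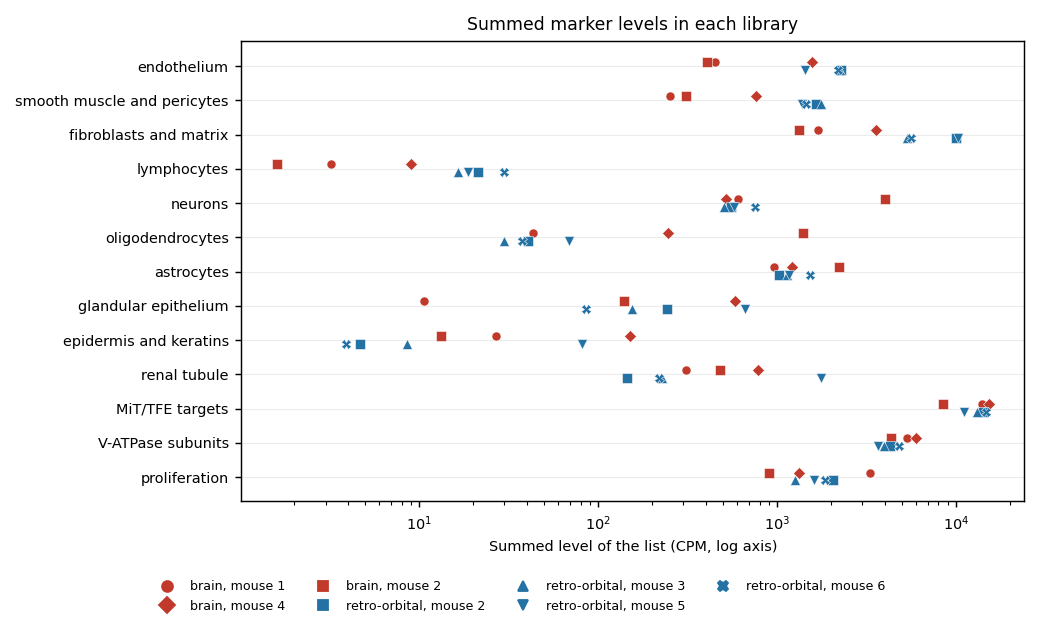
Summed level of 13 gene lists in each library, in CPM on a log axis, with brain tumors in red, retro-orbital tumors in blue and a symbol for each mouse. Vessel, pericyte and matrix lists lay higher in most retro-orbital tumors, neuron and oligodendrocyte lists peaked in the brain tumor of mouse 2, and the renal tubule list peaked in the retro-orbital tumor of mouse 5.

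No MiT/TFE target gene was called between the sites by edgeR with all 7 libraries. Gpnmb, a lysosomal membrane glycoprotein and a strong target of the family, was at 3087, 2699 and 4158 CPM in the brain tumors of mouse 1, mouse 2 and mouse 4, and at 4250, 3986, 2962 and 4626 CPM in the retro-orbital tumors of mouse 2, mouse 3, mouse 5 and mouse 6. The groups overlapped, and the 3 control mice without the fusion had 1.55 to 2.42 CPM in the kidney. The difference was -0.24 (SE 0.23), with a 95% interval from -0.77 to 0.29. Of 25 target genes tested, 0 passed an adjusted p of 0.05 in edgeR's quasi-likelihood test in either direction, beside 1.73% of all genes tested (364 of 21037). At an unadjusted p under 0.05 there was 1, and DESeq2 called 0. Without the brain tumor of mouse 1, 1 target was called lower, as was 1 by limma-voom with mouse as a random block. Their median difference was -0.02, beside 0.04 over all genes. None of the 23 V-ATPase subunits, which form the proton pump of the lysosome, passed (median 0.33), nor any of 16 mTORC1 regulators (median 0.13) or 20 cell cycle genes (median 0.07). At an unadjusted p under 0.05 there were 5, 2 and 0 of these, and DESeq2 called 2, 1 and 0. Without 1 library, the medians of targets, V-ATPase subunits and mTORC1 regulators were between -0.19 and 0.19, 0.20 and 0.45, and 0.07 and 0.28. The cell cycle median was -0.70 without the brain tumor of mouse 1 and 0.39 without that of mouse 2. Within the V-ATPase, Atp6v1h differed by 0.38 (SE 0.22, 95% interval -0.14 to 0.90). The mouse genes of the fusion partners were read as well. Tfe3 was at 16.8, 15.4 and 20.2 CPM in brain tumors and at 28.7, 32.8, 26.6 and 28.9 CPM in retro-orbital tumors. These groups did not overlap, as in 18.7% of all genes tested, but the difference of -0.73 (SE 0.19) missed the threshold (edgeR adjusted p = 0.0924). DESeq2 called Tfe3 lower (adjusted p = 0.0014), and in the other 18 alternatives it was not called. Aspscr1 overlapped between the sites, with a difference of -0.29 (95% interval -0.78 to 0.20). How reads of the human fusion transcript were assigned is not known.

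The letters that the family reads can be seen in front of these genes. Mcoln1 is a calcium channel of the lysosome and Fnip1 a partner of folliculin in nutrient sensing. Both were chosen after their values were seen, as targets with overlapping groups that hold these letters. Their 250 bases upstream of the start are printed from RefSeq (build GRCm38.p6, plus strand, chr8:3500269-3500518 and chr11:54437929-54438178), with the E-box CACGTG in capitals.
Mcoln1: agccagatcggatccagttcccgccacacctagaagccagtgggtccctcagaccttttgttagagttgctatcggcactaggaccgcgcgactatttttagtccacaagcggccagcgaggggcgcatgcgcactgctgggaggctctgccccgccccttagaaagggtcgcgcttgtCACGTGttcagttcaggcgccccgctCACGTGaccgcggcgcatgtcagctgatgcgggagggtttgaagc
Fnip1: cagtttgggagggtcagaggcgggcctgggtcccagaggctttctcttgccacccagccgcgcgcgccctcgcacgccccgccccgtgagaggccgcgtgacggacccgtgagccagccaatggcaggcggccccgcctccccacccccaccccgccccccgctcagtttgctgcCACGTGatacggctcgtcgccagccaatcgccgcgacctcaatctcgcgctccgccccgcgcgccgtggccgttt
Mcoln1 holds the E-box at 71 and 45 bases before the start and Fnip1 at 75 bases before it. Mcoln1 was at 164, 130 and 176 CPM in brain tumors and at 233, 225, 148 and 202 CPM in retro-orbital tumors, with overlapping groups and a difference of -0.35 (95% interval -0.82 to 0.13). Fnip1 was at 1115, 362 and 698 CPM against 997, 907, 651 and 802 CPM, which also overlapped. The letters CACGTG, a palindrome and so the same on both strands, occurred in 7 of the 21 target genes with a RefSeq promoter (33.3%), in 2 of 17 V-ATPase subunits (11.8%) and in 6.05% of 27025 promoters. They occurred in 7 of 65 promoters of genes called higher in brain tumors (10.8%) and in 7 of 188 of genes called lower (3.72%). A match is a run of letters and not a bound site.

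Between the sites, 364 of 21037 genes were called, of which 83 were higher in brain tumors (0.395% of those tested) and 281 were lower (1.34%). In each of the 364 genes, every brain tumor lay above or below every retro-orbital tumor. So it was in 3939 of all 21037 genes, with brain tumors higher in 7.59% and lower in 11.1%. The count rests on few libraries. It was 1316 without the brain tumor of mouse 1, 281 without that of mouse 2 and 1052 without that of mouse 4, and 1, 11, 179 and 10 without the retro-orbital tumor of mouse 2, mouse 3, mouse 5 and mouse 6. With mouse as a block, in a fit that added the kidney tumors of the 6 mice, 3 genes were called. Without both libraries of mouse 2, edgeR called 0 genes, with 3141 at an unadjusted p under 0.05. The gene called in each fit that left out 1 library was Osr2. The 65 called genes named here kept their direction in each of the 19 alternative fits that gave them an adjusted p, which DESeq2 did not for Rims2. They were picked as called genes with groups apart in these same libraries. A kept direction was therefore close to given and adds no support. In bulk tissue, fewer cells of a type and less RNA per cell cannot be told apart.

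Among called genes with a mean log2 CPM of 2 or more, the largest fall in brain tumors was that of Osr2, a zinc finger factor of the palate, the eyelid and the mesenchyme of the head (chromosome 15, 35296098 to 35303305). It was at 0.150, 0.162 and 0.0949 CPM in the brain tumors of mouse 1, mouse 2 and mouse 4, and at 92.95, 103, 84.3 and 161 CPM in the retro-orbital tumors of mouse 2, mouse 3, mouse 5 and mouse 6. The groups lay far apart, and kidney tumors fell between them, at 3.97 to 34.4 CPM in 6 mice. The difference was -9.63 (SE 0.44, edgeR adjusted p = 0.00152). In mouse 2 alone, the orbital tumor held 92.95 CPM and the brain tumor 0.162 CPM.

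Of 40 craniofacial factors tested, 4 were called lower in brain tumors, among them Osr2, Meox2 and Meox1, and none higher. Of all genes tested, 1.34% were called lower and 0.395% higher. The median of the list was -0.15. The median was -0.91, -0.78 and -0.26 without the brain tumor of mouse 1, mouse 2 and mouse 4, between -0.34 and -0.01 without 1 retro-orbital tumor and -1.15 with mouse as a block. The count of falls was 13 without the brain tumor of mouse 1, with 2 genes then higher, and 1, 2, 3 and 1 without the retro-orbital tumor of mouse 2, mouse 3, mouse 5 and mouse 6. With mouse as a block it was 0, and DESeq2 called 7 lower and 3 higher. Meox2 and Meox1, homeobox factors of somites and vessels, fell by 4.02 and 2.75 on the log2 scale. Both separated the sites without overlap, as each called gene did. Foxl2, a forkhead factor of the eyelid and periocular mesenchyme, was at 0, 0.0485 and 0.114 CPM against 2.64, 2.97, 2.31 and 3.17 CPM, and just missed the threshold (edgeR adjusted p = 0.0521). Among 18 Hox genes tested, which mark the trunk, only Hoxd8 was called. It was at 0.357, 0.695 and 0.437 CPM in brain tumors, at 3.95, 3.46, 5.41 and 3.06 CPM in retro-orbital tumors, and at 13.8 to 41.4 CPM in kidney tumors.

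A further set of these factors divided the brain tumors themselves. Alx1, which patterns the face and the eye region, was at 34.2 CPM in the brain tumor of mouse 1, at 0.646 and 0.0759 CPM in those of mouse 2 and mouse 4, and at 52.0 to 174 CPM in retro-orbital tumors. Its relative Alx4 was at 14.7 CPM in the brain tumor of mouse 1, at 0.178 and 0.152 CPM in the others, and at 17.4 to 32.2 CPM at the orbit. Twist1, a factor of cranial mesenchyme, was at 2.21 CPM against 0.0323 and 0.0380 CPM in the other brain tumors, with 3.80 to 7.17 CPM at the orbit. Prrx1, a homeobox factor of limb and face, was at 91.2 CPM in the brain tumor of mouse 1, inside the range of the retro-orbital tumors (72.8 to 97.3 CPM), and at 2.78 and 3.92 CPM in the other brain tumors. In these 4 genes the brain tumor of mouse 1 lay closer, on a log scale, to the orbit than to the other brain tumors. The 4 were picked from the craniofacial list with their values known, while Osr2 and Foxl2 were low in every brain tumor. None of the 4 was called. Alx1, which differed by -3.40 (SE 1.75, edgeR adjusted p = 0.318), passed without the brain tumor of mouse 1 at -8.40 (adjusted p = 0.0323). The same tumor was also the highest of all 7 for Tfap2b, a neural crest factor, at 109 CPM where the other brain tumors had 0.719 and 0.399 CPM, and its Ctsk, a collagen-cutting cathepsin, was at 131 CPM, beside 2.72 and 5.10 CPM.

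The reverse held for the Zic family, zinc finger factors of the dorsal brain and its membranes. Zic1 was at 119, 81.8 and 108 CPM in the brain tumors of mouse 1, mouse 2 and mouse 4, and at 0, 0.169, 6.97 and 0.291 CPM in the retro-orbital tumors of mouse 2, mouse 3, mouse 5 and mouse 6. Zic2 was at 42.2, 18.4 and 33.3 CPM against 0.103, 0.0422, 1.82 and 0.0323 CPM. Zic5 was at 58.8, 19.9 and 45.4 CPM against 1.90, 0.397, 3.62 and 2.04 CPM. In each of the 3 genes, all brain tumors lay above all retro-orbital tumors, as in 7.59% of all genes tested. The retro-orbital tumor of mouse 5 was the highest of its group in each. Zic5 was called (4.40, SE 0.74, edgeR adjusted p = 0.0407), while Zic1, Zic2 and Zic4 missed the threshold (5.81, 5.99 and 5.97, adjusted p = 0.135, 0.0945 and 0.111). Without the retro-orbital tumor of mouse 5, these last 3 passed (9.38, 9.07 and 9.49, adjusted p = 0.0393, 0.0204 and 0.0340), and Zic5 no longer did (4.86, adjusted p = 0.05865). The genes form pairs on opposite strands, Zic2 (122475435 to 122479852) and Zic5 (122456795 to 122465677) on chromosome 14, and Zic1 (91358058 to 91365810) and Zic4 (91362413 to 91389348) on chromosome 9. Zic1 and Zic4 overlap, so that reads of one cannot be told from reads of the other unless counting used the strand, which is not stated.

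Of 22 meningeal factors and markers tested, 2 were called higher in brain tumors, Zic5 and Slc13a4, and 1 lower, Mgp, with a list median of 2.53. Of all genes tested, 0.395% were called higher and 1.34% lower. None was called without the retro-orbital tumor of mouse 2, mouse 3 or mouse 6, or with mouse as a block, and DESeq2 called 11 higher. Slc13a4, a sulfate transporter of the meninges and choroid plexus, was at 11.7, 15.7 and 1.95 CPM in brain tumors and at 0.0207, 0.0338, 0.143 and 0.0323 CPM in retro-orbital tumors (7.41, SE 1.05, edgeR adjusted p = 0.0287). Its fold change is fitted against orbital levels of a few reads. Ptgds, the prostaglandin D synthase of the meninges, was at 1673, 546 and 791 CPM against 1.07, 0.709, 136 and 3.02 CPM. Its groups did not overlap, but the difference of 4.86 missed the threshold (edgeR adjusted p = 0.203), and without the retro-orbital tumor of mouse 5 it was 9.32 (adjusted p = 0.0318). In kidney tumors Ptgds was at 82.9 to 858 CPM. Eya1, a transcriptional cofactor in kidney and placode development, was at 639, 225 and 20.8 CPM in brain tumors and at 1.90, 3.06, 8.48 and 1.99 CPM in retro-orbital tumors, a difference of 6.29 that just missed the threshold (SE 1.19, edgeR adjusted p = 0.0521).

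**Figure D2:**
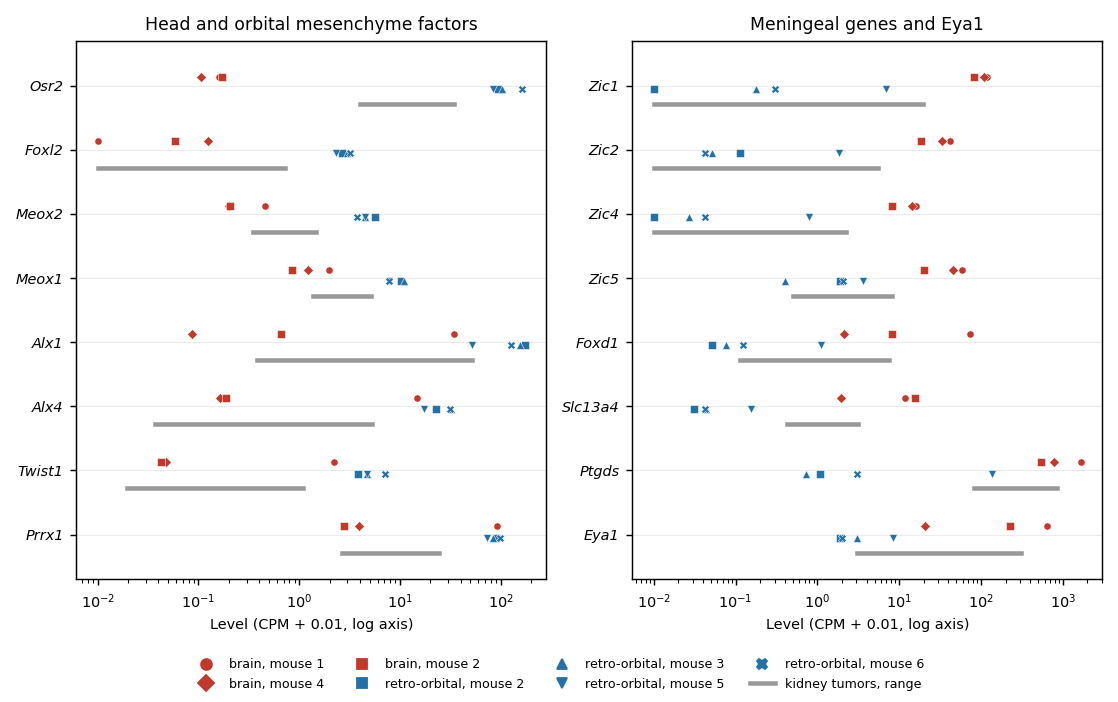
Level of 16 genes in each brain tumor (red) and retro-orbital tumor (blue), with the range over the kidney tumors of 6 mice as a gray bar, in CPM plus 0.01 on a log axis. Osr2 and Foxl2 separated the sites, Alx1, Alx4, Twist1 and Prrx1 were high in the brain tumor of mouse 1 only among brain tumors, and Zic1, Zic2, Zic4 and Zic5 were high in the 3 brain tumors.

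Genes of the vessel wall included called members among endothelium and mural cells. Of 19 endothelial genes tested, 7 were called lower, beside 1.34% of all genes tested, and none higher. The median was -2.29, beside 0.04 over all genes. Cdh5, the cadherin of endothelial junctions, was at 40.7, 16.3 and 43.0 CPM in the brain tumors of mouse 1, mouse 2 and mouse 4, and at 399, 467, 216 and 437 CPM in the retro-orbital tumors of mouse 2, mouse 3, mouse 5 and mouse 6. The lowest retro-orbital tumor was well above the highest brain tumor (-3.49, SE 0.45, edgeR adjusted p = 0.0229). Pecam1, an adhesion molecule of the endothelium, was at 31.8, 29.3 and 42.3 CPM against 242, 253, 188 and 261 CPM, and again did not overlap (-2.76, SE 0.21, adjusted p = 0.00990). The remaining called genes were Robo4, Erg, Emcn, Tie1 and Egfl7, which fell by 1.99 to 3.34 on the log2 scale. Kdr, the main receptor for VEGF, did not follow them. It was at 68.0, 157 and 1001 CPM in brain tumors and at 256, 252, 256 and 235 CPM in retro-orbital tumors, so that the brain tumor of mouse 4 had the most. Plvap, a protein of fenestrated vessels, was at 101 CPM in the brain tumor of mouse 1, inside the range of the orbit (54.3 to 118 CPM), and at 5.24 and 13.8 CPM in the others. Of 11 genes of brain vessels that form the barrier to blood, none was called by edgeR (median 1.82), with 4 at an unadjusted p under 0.05 and 3 called higher by DESeq2. Without the brain tumor of mouse 1, 2 were called higher, and without the retro-orbital tumor of mouse 5, 1 was. The median was 0.92 without the brain tumor of mouse 4. In kidney tumors, Cdh5 was at 59.8 to 110 CPM and Pecam1 at 61.4 to 109 CPM. The endothelial count was 9, 5 and 11 without the brain tumor of mouse 1, mouse 2 and mouse 4, and 0, 1, 7 and 1 without the retro-orbital tumor of mouse 2, mouse 3, mouse 5 and mouse 6, while the median stayed between -2.46 and -2.002. With mouse as a block the count was 0, with a median of -2.34, and DESeq2 called 14 lower.

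The Notch pathway, which passes signals between neighboring vessel cells, held called genes among its ligands, its receptors and its targets. Of 14 genes tested, 6 were called lower, beside 1.34% of all genes tested, and none higher (median -1.80). Among ligands, Dll4, made by arterial and sprouting endothelium, was at 5.79, 1.97 and 5.53 CPM in brain tumors and at 59.8, 92.3, 26.7 and 64.9 CPM in retro-orbital tumors (-3.76, SE 0.58, edgeR adjusted p = 0.0331), and Jag1 fell by 1.70. Among receptors, Notch4, Notch3 and Notch1 fell by 3.19, 2.08 and 2.05. Notch1 was at 21.02, 24.9 and 26.7 CPM against 116, 102, 86.7 and 101 CPM. Among targets, Heyl, a transcriptional repressor of mural cells, was at 2.63, 4.14 and 3.55 CPM against 26.0, 29.0, 21.6 and 28.3 CPM (-2.91, SE 0.26, adjusted p = 0.0130). The groups of all 6 genes stood apart, as in each called gene. None of the 6 was called without the retro-orbital tumor of mouse 2, mouse 3 or mouse 6, or with mouse as a block. Gja5, a gap junction protein of arteries, and Btnl9, a butyrophilin-like gene, were among the 15 largest falls (-4.94 and -5.09).

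Of 20 genes of smooth muscle and pericytes, the contractile cells around vessels, 7 were called lower and none higher (median -1.83). Of all genes tested, 1.34% were called lower. Pdgfrb, the growth factor receptor of pericytes, was at 26.9, 24.7 and 60.4 CPM in brain tumors and at 323, 393, 278 and 276 CPM in retro-orbital tumors, and Abcc9, a subunit of their potassium channel, at 22.9, 16.9 and 43.5 CPM against 285, 288, 156 and 207 CPM. As in each called gene, neither overlapped between the sites (-3.07, SE 0.37, and -3.06, SE 0.41). Olfr558, an odorant receptor gene found in vascular smooth muscle, was at 2.08, 2.33 and 2.87 CPM against 61.7, 56.2, 36.7 and 70.9 CPM. It fell by 4.52 (SE 0.31, edgeR adjusted p = 0.00982) and was the one member called with mouse as a block. Cspg4, Notch3, Acta2 and Lmod1 were the other called members. The list count was 0, 1, 4 and 1 without the retro-orbital tumor of mouse 2, mouse 3, mouse 5 and mouse 6.

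Of 30 fibroblast and matrix genes, 5 were called lower, beside 1.34% of all genes tested, and none higher, with a median of -2.64. Fap, a surface protease of activated fibroblasts, was at 3.38, 1.70 and 2.38 CPM in brain tumors and at 85.0, 63.9, 85.7 and 111 CPM in retro-orbital tumors (-5.10, SE 0.36, edgeR adjusted p = 0.00982). Col1a1, the main fibrillar collagen, was at 70.4, 31.9 and 80.7 CPM against 877, 407, 889 and 373 CPM (-3.37, SE 0.51). Sparc, a collagen-binding protein, was at 126, 139 and 148 CPM against 391.5, 339, 357 and 419 CPM, and fell by 1.43 (SE 0.14). Col1a2 and Aspn were the other 2 called. Not all stroma genes were low in brain tumors: Dcn, a small proteoglycan of fibroblasts, was at 252, 467 and 1223 CPM against 904, 528, 624 and 552 CPM, and Pdgfra, a receptor for platelet-derived growth factor on fibroblasts, at 4.87, 72.01 and 680 CPM against 203, 328, 88.3 and 208 CPM. Both overlapped, with the highest value in the brain tumor of mouse 4. The count of 5 became 11 without the brain tumor of mouse 1 and 0, 1, 3 and 1 without the retro-orbital tumor of mouse 2, mouse 3, mouse 5 and mouse 6. It was 0 with mouse as a block and 23 by DESeq2. Of 23 matrix proteases, their inhibitors and lysyl oxidases, Mmp11, Adamts12, Loxl3 and Timp3 were called lower and none higher (median -1.59). Has2, which makes hyaluronan, Itga2, a collagen-binding integrin, and Col28a1 were among the largest falls (-4.14, -4.17 and -5.15). Of 24 genes of the TGF-beta and BMP families, the ligands Tgfb1 and Inhbb were called, both lower (-2.98 and -3.20). No gene of the protease and TGF-beta lists was called without the retro-orbital tumor of mouse 2, mouse 3 or mouse 6.

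**Figure D3:**
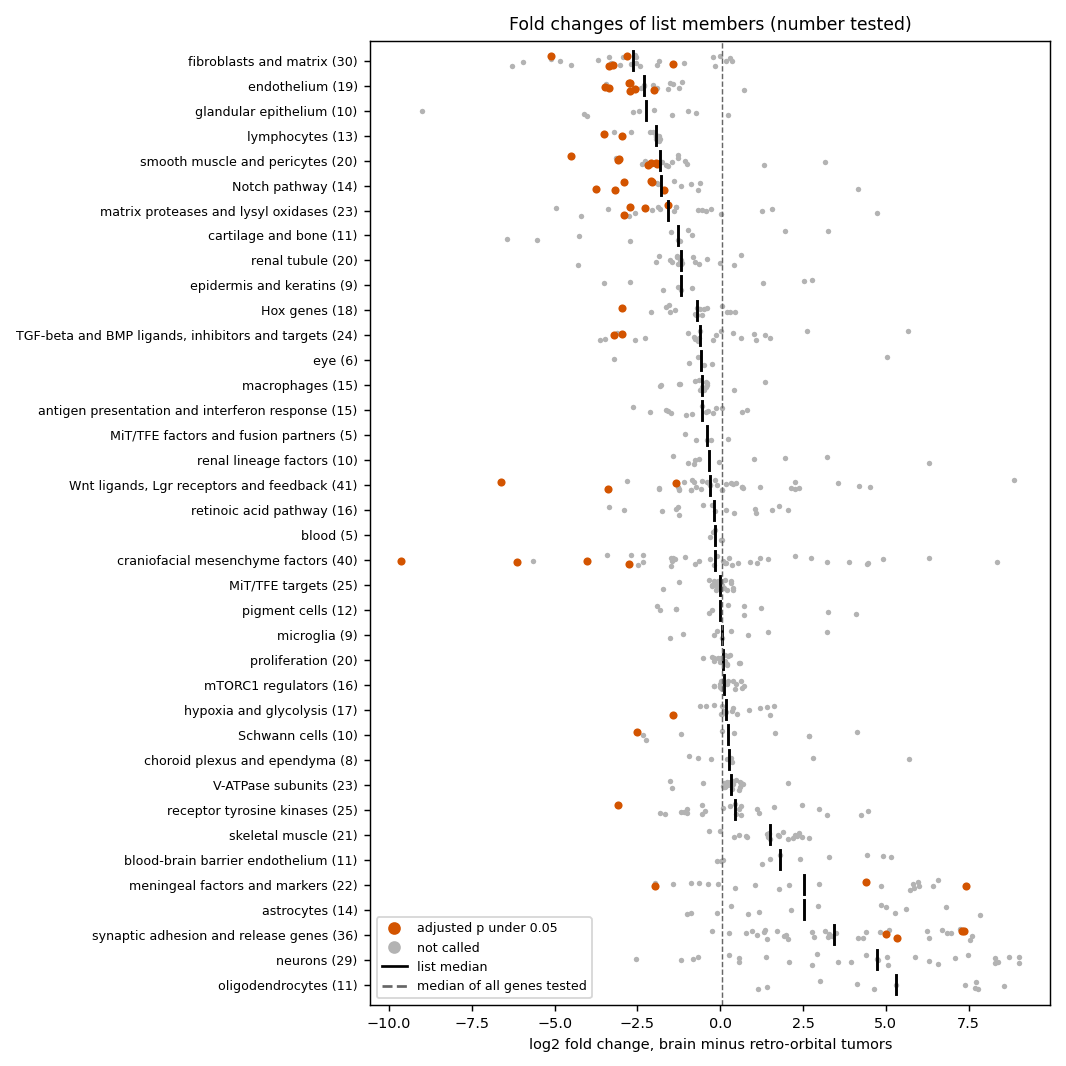
Log2 fold change, brain minus retro-orbital tumors, of each tested member of the gene lists with at least 5 members tested, with called genes in orange, list medians as black bars and the median of all genes as a dashed line. Fibroblast, endothelial, mural and Notch lists lay to the left, MiT/TFE targets, V-ATPase and cell cycle lists lay near 0, and neuron and oligodendrocyte lists lay to the right with no called member.

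Nos1, the neuronal nitric oxide synthase, had the highest mean level at the orbit among the 15 largest falls. It was at 9.63, 22.5 and 14.7 CPM in the brain tumors of mouse 1, mouse 2 and mouse 4, and at 864, 1563, 644 and 753 CPM in retro-orbital tumors (-5.92, SE 0.51, edgeR adjusted p = 0.0130). Kidney tumors had 25.9 to 267 CPM and control kidneys 1.73 to 3.22 CPM. Lgr6, a stem cell receptor for R-spondins in the Wnt pathway, was at 0.150, 1.02 and 0.436 CPM against 45.1, 31.7, 78.3 and 61.2 CPM (-6.63, SE 0.80, adjusted p = 0.0212). Of 41 Wnt pathway genes tested, Lgr6, the inhibitor Dkk2 and the receptor Fzd4 were called, all lower, beside 1.34% of all genes tested. The list median was -0.31, and -0.51 to -0.02 without 1 library. It was lowest without the brain tumor of mouse 1 and nearest 0 without that of mouse 4. None of the Wnt genes was called without the retro-orbital tumor of mouse 2, mouse 3 or mouse 6, and DESeq2 called 3 higher and 3 lower. Hpse2, a relative of heparanase, was at 0.0375, 0.113 and 0 CPM against 20.7, 21.03, 5.36 and 21.2 CPM, with a fold change of -8.32 that is fitted against brain levels near 0. Afg1l, a mitochondrial ATPase, fell by 4.02 and Depp1, a gene of the fasting response, by 4.24.

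Of 13 lymphocyte markers tested, 2 were called lower in brain tumors, beside 1.34% of all genes tested, and none higher, with a median of -1.95. All 13 had a negative difference, beside 47.1% of all genes tested. Cd79a, part of the B-cell receptor, was at 0.244, 0.299 and 0.304 CPM in brain tumors and at 1.92, 2.10, 1.57 and 3.44 CPM in retro-orbital tumors (-2.98, SE 0.41, edgeR adjusted p = 0.0264). Ighg2b, an immunoglobulin heavy chain constant segment, was at 0.319, 0.501 and 1.54 CPM against 20.4, 10.7, 27.5 and 27.9 CPM (-4.77, SE 0.71). Both genes separated the sites, as each called gene did. The light chain segment Igkv4-68 was also among the largest falls (-5.15), but segments of this family are alike and their reads may have been split. Of 15 macrophage and 9 microglia markers, 0 were called by edgeR, with medians of -0.55 and 0.04. At an unadjusted p under 0.05 there were 0 and 1, and DESeq2 called 0 and 1. Without the brain tumor of mouse 4, 1 macrophage marker was called lower and the medians were -1.22 and -0.09, and without the retro-orbital tumor of mouse 5, 1 microglia marker was called higher. The lymphocyte count was 7 without the brain tumor of mouse 4, with a median of -3.21, and 7 by DESeq2. It was 0 without the brain tumor of mouse 2, without the retro-orbital tumor of mouse 2, mouse 3 or mouse 6, and with mouse as a block.

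Genes of the synapse were among those that rose in brain tumors. Of 36 genes of synaptic adhesion and release, 4 were called higher, beside 0.395% of all genes tested, and none lower, with a median of 3.44. Sez6l, a membrane protein of neurons, was at 81.7, 56.0 and 97.9 CPM in the brain tumors of mouse 1, mouse 2 and mouse 4, and at 1.20, 2.20, 4.89 and 1.53 CPM in retro-orbital tumors (5.02, SE 0.56, edgeR adjusted p = 0.0212). Nlgn1, an adhesion molecule of excitatory synapses, was at 86.1, 112 and 5.42 CPM against 0.269, 0.270, 1.04 and 0.113 CPM (7.35, SE 1.27, adjusted p = 0.0425). Rims1 and Rims2, scaffolds of the release site, rose by 7.31 and 5.35, with 17.4, 190 and 5.38 CPM and with 41.0, 353 and 44.8 CPM in brain tumors. None of the 4 overlapped between the sites, as in each called gene. In kidney tumors, Nlgn1 was at 1.76 to 37.4 CPM, Rims2 at 19.7 to 47.4 CPM, Rims1 at 0.0191 to 2.78 CPM and Sez6l at 0.134 to 10.2 CPM.

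No marker of neurons was called by edgeR among 29 tested, although the median was 4.73, and the same held for 14 astrocyte markers (median 2.53) and 11 oligodendrocyte markers (median 5.31). At an unadjusted p under 0.05 there were 22, 5 and 10 in these lists, and DESeq2 called 14, 4 and 8, all higher in brain tumors. Without the brain tumor of mouse 1, edgeR called 12 neuron markers higher and 1 lower, 2 astrocyte markers higher and 6 oligodendrocyte markers higher. Without that of mouse 2, the medians were 1.39, 1.25 and 3.39, and 2 neuron markers were called lower. The neuron list summed to 604, 4043 and 523 CPM in the brain tumors of mouse 1, mouse 2 and mouse 4 and to 510 to 754 CPM in retro-orbital tumors, and the oligodendrocyte list to 43.2, 1407 and 245 CPM against 29.9 to 68.8 CPM. A sum gives most weight to its most abundant members. Of the 29 neuron markers, 25 had a positive difference and 4 a negative one. In the brain tumor of mouse 1 several markers of neurons were low, Snap25 at 2.23 CPM, Slc17a6, the transporter of excitatory neurons, at 0.0938 CPM and Gad2, the enzyme of inhibitory neurons, at 0.0375 CPM. The same library held 81.7 CPM of Sez6l, 86.1 CPM of Nlgn1, 52.6 CPM of the potassium channel Kcna1 and 86.9 CPM of the neuronal splicing factor Rbfox3. Kcna1 was at 52.7 and 67.2 CPM in the other brain tumors and at 0.236 to 6.67 CPM at the orbit, and Rbfox3 at 55.9 and 55.2 CPM and at 0.509 to 8.84 CPM, with neither called. Without the brain tumor of mouse 1, 16 of the 36 synaptic genes were called, and without that of mouse 2, 3 were, with a median of 1.16. The count was 0 without the retro-orbital tumor of mouse 2, mouse 3 or mouse 6, and 2 without that of mouse 5. With mouse as a block it was 0.

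Slitrk2, a neuronal membrane protein, was at 17.7, 47.4 and 43.0 CPM in brain tumors and at 2.42, 2.58, 3.61 and 1.78 CPM in retro-orbital tumors (3.81, SE 0.42, edgeR adjusted p = 0.0212). Baalc, a gene of brain and of blood progenitors, was at 12.96, 16.7 and 4.00 CPM against 0.269, 0.118, 0.475 and 0.242 CPM (5.37, SE 0.69, adjusted p = 0.0227). Both were apart between the sites, as each called gene was. Sorcs3, a sorting receptor, Gng3, a G protein subunit, and Ddx25, an RNA helicase, rose by 6.04, 5.88 and 5.80 and were highest in the brain tumor of mouse 2, at 38.5, 48.8 and 54.5 CPM. Tmem132b, Rab37, Rgs20 and P2rx5 rose by 4.73, 3.86, 3.41 and 3.13. P2rx5, a channel opened by ATP, was at 6.89, 7.84 and 9.49 CPM in brain tumors and at 0.397 to 1.86 CPM at the orbit, and at 4.48 to 15.2 CPM in kidney tumors and 8.36 to 14.5 CPM in control kidneys.

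**Figure D4:**
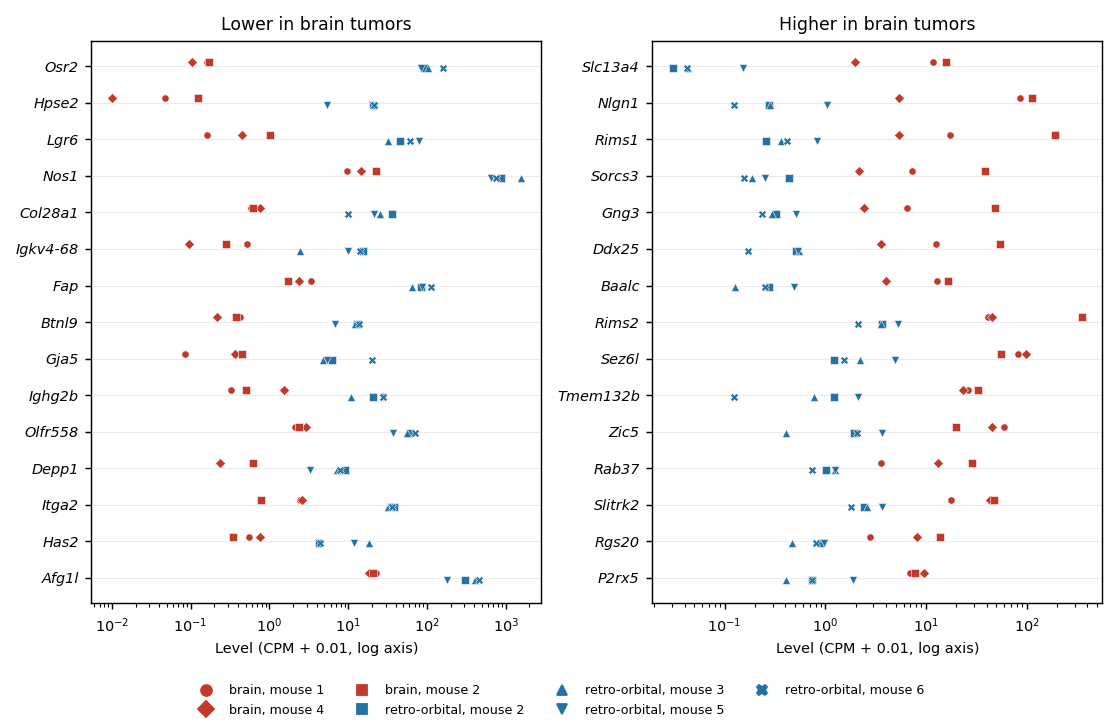
Level of the 15 genes with the largest falls and the 15 with the largest rises in brain tumors, in CPM plus 0.01 on a log axis, with brain tumors in red, retro-orbital tumors in blue and a symbol for each mouse. The genes were chosen among those with groups apart, so that separation follows from the rule. They run from Osr2 at 0.0949 to 0.162 CPM against 84.3 to 161 CPM to P2rx5 at 6.89 to 9.49 CPM against 0.397 to 1.86 CPM.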

How the data were processed

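RNA from formalin-fixed tumors was made into stranded total RNA libraries without removal of ribosomal RNA, per the labels. Whole-number counts for each gene were deposited, without scaling. The submitters' processing notes name STAR 2.5.2a, Bowtie2, FastQC and MultiQC and the builds GRCm38 and mm10. The counter, its strand setting and its annotation are not given in the sources used here, and the paper supplied for style reports other mice. Of 53379 gene IDs, 53274 matched GENCODE M21 (GRCm38) without the version, and coordinates are from that release. Of counts from 1 to 20, 79.4% to 82.2% were even, so that fragments may have been counted as 2 reads.

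The 7 libraries were fitted with edgeR 4.0.16 in R 4.3.3 (filterByExpr, TMM, quasi-likelihood F-test), and genes were called at a Benjamini-Hochberg adjusted p under 0.05. SE was obtained from the fold change and F (size over root F), and 95% intervals use the t distribution. Levels are CPM scaled by TMM over all Sglt2-Cre samples, with kidney libraries summed per mouse. Alternatives used limma 3.58.1 and DESeq2 1.42.0. Code was tested on simulated data. Tissues of the same mouse pair samples. Deviations from group means of same-mouse tissues correlated at -0.0907 for the brain and retro-orbital tumor of mouse 2, at -0.0681 to -0.0597 for brain and kidney tumors and at 0.239 to 0.316 for retro-orbital and kidney tumors. A count of 3 reads sets a floor of 0.0242 to 0.0310 CPM, which covers counting error only. The 7 libraries came from 6 mice, and the main fit treats both libraries of mouse 2 as independent.

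Members, lists and tests were chosen with earlier results of these data known. Any gene of 39 lists could be named. So could 15 genes in each direction with the largest fold changes, among those called, with groups apart, a mean log2 CPM of 2 or more and a symbol other than a Gm or Rik name. Some genes that enter the list counts are not reported here by name. The Pax8-Cre samples were not used here.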

Additional observations from a re-analysis of the deposited data

Results flagged for a closer look

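In the group of 4 retro-orbital tumors, the gap between 1 library and the nearest other was compared with Dixon's critical ratio for 4 samples, over 100 genes and 39 summed lists. Chance flags about 1 in 20 of independent values, and 28 of the 139 passed. The genes were chosen with their values known and the lists contain many of them, so the count cannot be read against chance. The groups of 3 brain tumors were not tested in this way.

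The retro-orbital tumor of mouse 5 was the library apart in 23 of the 28. It was above the others for some genes of the brain and its membranes, with 6.97 CPM of Zic1 (0 to 0.291 in the others), 1.82 CPM of Zic2 (0.0323 to 0.103), 0.780 CPM of Zic4, 1.09 CPM of Foxd1, 0.143 CPM of Slc13a4 and 136 CPM of Ptgds (0.709 to 3.02). Its Gfap was at 9.06 CPM (0 to 0.0970 in the others), Mog at 0.108 CPM (0 in the others), Snap25 at 1.24 CPM, Nlgn1 at 1.04 CPM, Kcna1 at 6.67 CPM, the pigment enzyme Dct at 99.3 CPM (0 to 2.18) and Tfap2b at 4.30 CPM. It also had 185 CPM of Umod and 240 CPM of Ltf, and its renal tubule list summed to 1767 CPM (146 to 229), renal lineage factors to 40.8 CPM, Hox genes to 23.4 CPM and keratins to 81.8 CPM (3.89 to 8.61). In the brain tumors of mouse 1, mouse 2 and mouse 4, the renal tubule list summed to 311, 482 and 781 CPM. Renal lineage factors summed there to 717, 256 and 33.5 CPM, Hox genes to 2.31, 4.26 and 6.81 CPM and keratins to 26.8, 13.3 and 151 CPM. Among retro-orbital tumors, that of mouse 5 was below the others for Hpse2 at 5.36 CPM (20.7 to 21.2), Tie1 at 55.9 CPM (83.2 to 87.4), the endothelium list at 1437 CPM (2208 to 2277) and mTORC1 regulators at 2823 CPM (3599 to 3680). Its summed lists of neurons (574 CPM), synaptic genes (633 CPM), astrocytes (1165 CPM) and choroid plexus (145.5 CPM) lay within the range of the other retro-orbital tumors, and its oligodendrocyte list (68.8 CPM) lay above them (29.9 to 40.7). The part of other tissue in this library was not tested.

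In the other retro-orbital tumors, Gja5 was at 19.8 CPM in mouse 6 (4.83 to 6.17 in the others), Ddx25 at 0.162 CPM in mouse 6 (0.496 to 0.540), skeletal muscle genes summed to 420.3 CPM in mouse 6 (265 to 277), Jag1 was at 106 CPM in mouse 2 (68.5 to 74.6), and the MiT/TFE factors with the fusion partners summed to 95.9 CPM in mouse 3 (73.2 to 75.6).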

How the results depend on the processing

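Against 364 called genes, DESeq2 called 3051, a filter of at least 1 CPM in 3 libraries 600, a joint fit with kidney tumors 1498, limma-voom with mouse as a random block 1102, adjustment for sex 175, a test for changes beyond 1.5-fold 140 and the fixed mouse block, which is the paired analysis, 3. Fits that left out 1 library called 1 to 1316, and leaving out both libraries of mouse 2 gave 0 by edgeR, with 3141 at an unadjusted p under 0.05. RLE factors, upper quartile factors, no filter and halved counts called 390, 316, 273 and 499. The share of calls that were lower in brain tumors was 77.2%, and 51.7% with DESeq2, 46.0% in the joint fit, 61.4% with limma-voom and 47.8% without the brain tumor of mouse 1. The cause of these shifts was not tested. The 65 called genes named all kept their direction under each alternative that gave a value (Rims2 had none with DESeq2). As their groups were apart from the outset, this was close to given. Of their values under alternatives, 800 were past the threshold. Among the 65, Osr2 alone passed in each fit without 1 library, and Olfr558 alone with the mouse block. Fnip1, which was not called, differed by -0.65 to 0.11 in fits without 1 library, above 0 without the brain tumor of mouse 2, and by 0.23 without both libraries of mouse 2. Of 741 list medians, 72 moved by more than the spread between libraries. With 3 and 4 libraries, of which mouse 2 gave one to each group, an uncalled difference is not shown to be absent.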

Other observations

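Immunoglobulin gene segments were chosen as a set after their values were seen, and their reads may be shared. Of 187 segments tested, 185 had a negative difference, beside 47.1% of all genes tested. Of the 187, 9 were called, all lower, beside 1.34% of all genes called lower, and the median was -2.96. Their summed level was 83.7, 62.6 and 536 CPM in the brain tumors of mouse 1, mouse 2 and mouse 4, and 1479, 472, 1224 and 1709 CPM in the retro-orbital tumors of mouse 2, mouse 3, mouse 5 and mouse 6. The brain tumor of mouse 4 lay above the retro-orbital tumor of mouse 3.

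Pigment genes varied within and between the sites without a call by edgeR among 12 tested, with 3 at an unadjusted p under 0.05 and 2 called by DESeq2. Slc24a5, an ion exchanger of pigment granules, was at 483, 227 and 488 CPM in brain tumors and at 8.01, 92.0, 30.0 and 38.2 CPM in retro-orbital tumors, which did not overlap (3.27, SE 0.74, edgeR adjusted p = 0.0733). Dct was at 0.225, 468 and 839 CPM in brain tumors and at 0, 0.118, 99.3 and 2.18 CPM in retro-orbital tumors. Pmel, a fibril protein of pigment granules, was at 557, 85.0 and 357 CPM against 876, 1152, 469 and 934 CPM.

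The brain tumor of mouse 1 had the highest summed level of cell cycle genes, 3316 CPM, beside 904 and 1337 CPM in the other brain tumors and 1256 to 2065 CPM in retro-orbital tumors.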
